A study of Mus musculus with 16 samples.

Results

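The genes described here encode the scaffold of the excitatory postsynapse and the signalling proteins of the dendritic spine: MAGUK, SHANK, HOMER and SAPAP scaffolds, neuroligins and leucine-rich repeat adhesion proteins, CaMKII, the AMPA receptor auxiliary proteins known as TARPs, and regulators of spine actin. They were chosen by gene name from knowledge of the postsynapse, with receptor subunits left out. All 33 names have rows among the 39179 gene rows of the count tables. Of these, 32 passed the filter on low counts, as did 18074 genes in all. The remaining gene, Cacng8, which encodes the TARP gamma-8, had 0 counts in all 16 libraries on both of its 2 rows. Those rows are copies of equal exon length on chromosome 7 and on a patch sequence, so the zeros give no level for it.

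RNA sequencing was done on cortical and hippocampal neurons, as the labels name them, from adult TERT-AD mice of the strain B6.129S6.SvEvTac. All 4 groups share the TERT-AD model. They differ in region and in whether the mice received vehicle (control) or tamoxifen, and the series title speaks of activation of Tert, the catalytic subunit of telomerase. The sources used here do not give the age or sex of the mice, the means of isolating neurons, the promoter behind the Tert activation, or what the initials AD stand for. Each group holds 4 libraries, with 33236178 to 57195203 counts in genes per library. Libraries 1 and 2 of a group, and libraries 3 and 4, differed by 2.58 to 2.79 times the Poisson variance at 20 to 200 counts, against 3.59 to 16.7 times for the other pairs of the same group. Each such pair was therefore added up and counted once, giving samples A and B of each group, each holding between 83527470 and 108293362 gene counts. No label ties a library to an animal, so the spread behind the p-values is that between these samples and may be technical.

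In an excitatory synapse the receptors for glutamate sit in the postsynaptic density, a protein layer at the head of a dendritic spine. MAGUK proteins such as PSD-95 bind receptors and adhesion proteins at the membrane, SAPAP proteins join MAGUKs to SHANKs, and SHANKs and HOMERs form a deeper lattice that reaches to actin and to intracellular calcium stores. Neuroligins and leucine-rich repeat proteins hold the spine to the presynaptic terminal, TARPs carry and hold AMPA receptors, and the kinase CaMKII is central to long-term potentiation.

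Transcripts of other cells were present beside those of neurons. The myelin gene Mbp stood at 14443 to 56280 CPM (read counts scaled to library size, here with the TMM method of edgeR), and mitochondrial transcripts took 20.1 to 32.1% of gene counts. The mean log2 CPM of 10 genes common to all neurons was 7.13 to 8.08 in the cortical samples and 6.38 to 6.75 in the hippocampal ones, and none of the 10 was at 0. Markers of cortical neurons were lower in the hippocampal samples by 1.35 on average on the log2 scale (6 genes, 5 past an edgeR adjusted p of 0.05). Markers of hippocampal neurons were higher by 1.59 (7 genes, 3 past it). One of the latter, Dsp, stood at 4.14 CPM in hippocampal tamoxifen A and at 15.8 to 24.9 in the remaining hippocampal samples. That sample was also the lowest of its region in Ttr, a gene of choroid plexus. In cortex Dsp stood at 1.47 and 0.056 CPM in controls A and B and at 9.72 and 0.053 in tamoxifen A and B. Ttr stood there in the same order, at 1012, 4.62, 5691 and 2.79. Dsp is thus a doubtful marker of neurons in these samples, though it stays in the mean of 7 genes. Sample B of the tamoxifen cortex stood apart from the other 3 cortical samples, and results that rest on it are given with and without it.

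The 33 genes together took 1.32 to 1.91% of gene counts in the cortical samples and 1.23 to 1.68% in the hippocampal ones. Camk2a alone supplied 35.0 to 40.4% of those counts. Levels of different genes were compared as CPM per kb of exon. On that scale Camk2a, the alpha subunit of CaMKII, ranked first in both regions, at 827 ± 45.0 in cortex and 671 ± 91.5 in hippocampus (SD, n = 4 samples, both treatment labels). Next stood Ppp1r9b, which encodes spinophilin, an actin-binding protein that anchors protein phosphatase 1 in spines, at 579 ± 25.3 and 474 ± 42.9. These levels are set apart from the next genes by more than their spread. Dlgap3, Dlg4 and Shank1 followed, at 229 ± 14.7, 217 ± 20.6 and 180.0 ± 12.2 in cortex and at 139 ± 20.3, 154 ± 26.3 and 125 ± 20.5 in hippocampus, and the SDs of Dlgap3 and Dlg4 overlapped in both regions, as those of Dlgap3 and Shank1 did in hippocampus. At the other end were Lrrtm2, at 2.10 ± 1.25 in cortex and 1.69 ± 0.173 in hippocampus, and Nlgn3, at 2.10 ± 0.513 and 1.72 ± 0.282, which do not differ beyond their spread. Most genes held nearly the same place in both regions. Homer3 moved most, from rank 30 in cortex to rank 23 in hippocampus, and Dlgap2 and Cacng3 each fell 5 places, from 19 to 24 and from 23 to 28.

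**Figure D1:**
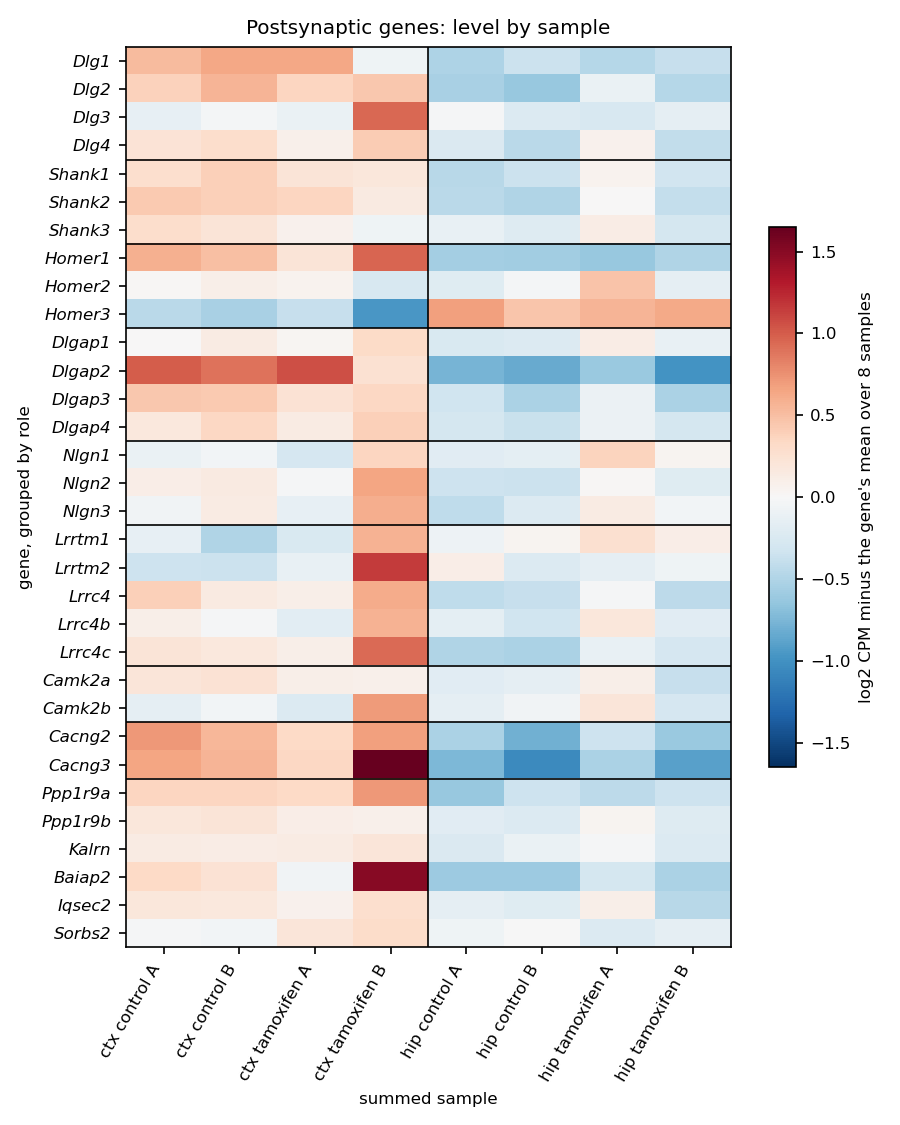
Heat map of log2 CPM minus each gene's mean over the 8 samples, for the 32 genes with counts (rows, grouped by role) in the 8 samples (columns, cortical on the left and hippocampal on the right). Most rows are higher on the left under TMM scaling, Homer3 is higher on the right, and tamoxifen sample B of the cortex differs from its neighbours in both directions.

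Hippocampal samples were compared with cortical samples, averaged over both treatment labels (4 samples per region). With TMM scaling, 14 of the 32 genes were lower in hippocampus and 1 was higher at an edgeR adjusted p under 0.05, while 9.94% of all tested genes were lower and 8.42% higher. The median log2 fold change of the 32 was -0.42, against 0.00 over all genes tested, and 28 of the 32 values were negative. The 4 hippocampal samples all lay below the 4 cortical ones for 17 genes and all above for 1, against a background of 15.2% and 11.8% of genes. The size and, for most genes, the direction depended on the scaling. When samples were scaled to their total gene counts the median of all genes moved to 0.27, and 7 of the 32 were lower and 1 higher. On that scale 3652 of 18074 genes passed in either direction. When samples were scaled to the 10 general neuronal genes the median of all genes moved to 0.89, and 1 was lower and 11 were higher. There 10835 of 18074 genes passed in either direction, so those 11 are no trait of the 32 genes. Cacng3, lower, and Homer3, higher, passed the threshold under all 4 scalings tried (TMM, RLE, gene sum and neuronal genes). Baiap2, Cacng2, Dlg1, Dlgap2 and Homer1 kept a negative sign under all 4. Homer2, Lrrtm1 and Nlgn1 kept a positive one, at 0.06, 0.13 and 0.02 with TMM (edgeR adjusted p = 0.812, 0.664 and 0.941). The other scalings raised the median of all genes, so a positive sign could not be lost and its agreement shows nothing. Fewer cells of a type and less RNA per cell cannot be told apart in such samples. Of the 10 general neuronal genes, 5 were themselves lower in hippocampus and none higher, while 5 of 7 astrocyte markers, 6 of 7 microglial markers and 4 of 5 markers of oligodendrocyte precursors were higher and none lower. Markers of inhibitory neurons were lower (6 of 6), as were 2 of 5 of excitatory neurons, and their mean levels differed by -0.94 and -0.64 on the log2 scale. A list of 5 striatal genes stood at 4.09 to 5.42 in the cortical samples and 2.60 to 2.90 in the hippocampal ones (mean log2 CPM), and 4 of the 5 were lower in hippocampus under all 4 scalings. Choroid plexus markers were higher by 3.27 on average, with 0 of 5 past the threshold. Their part in the result was not tested beyond the scaling to neuronal genes.

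**Figure D2:**
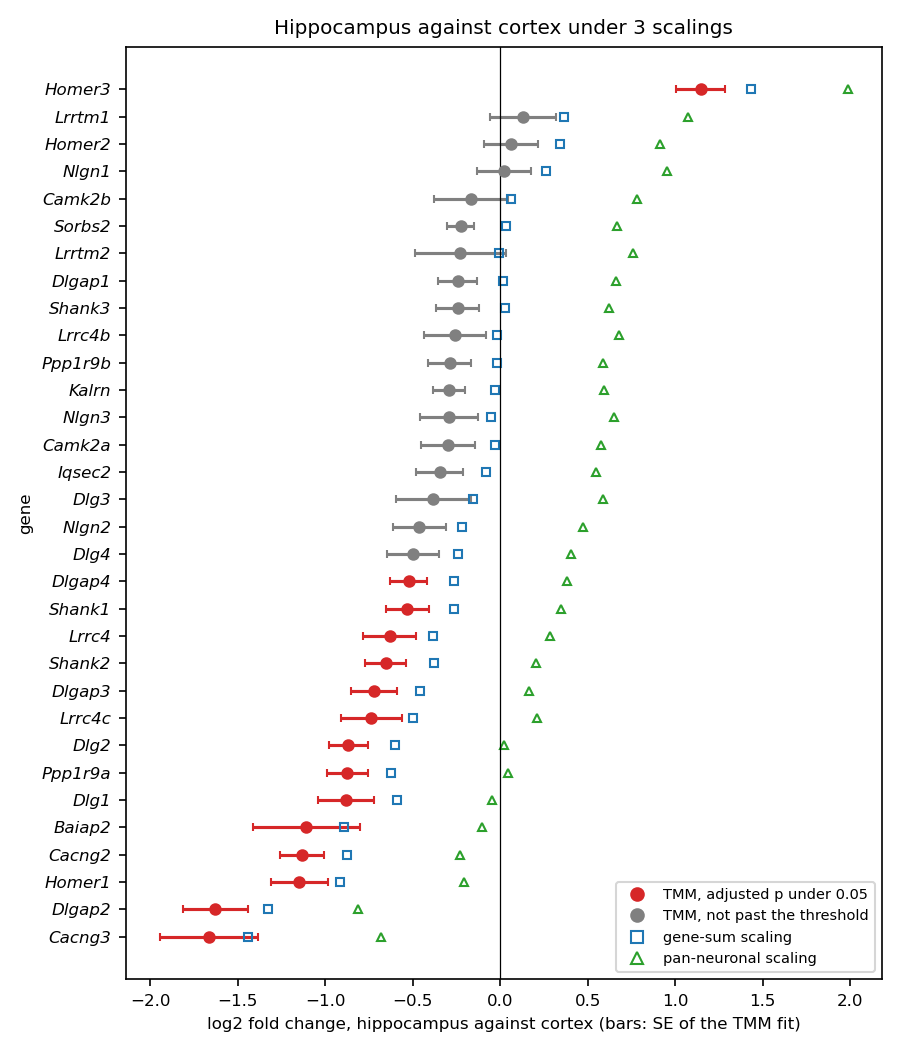
Log2 fold change of hippocampal against cortical samples for each gene (rows), as filled circles with SE from the TMM fit (red where the edgeR adjusted p is under 0.05), with the values under gene-sum scaling (squares) and under scaling to 10 general neuronal genes (triangles). Under TMM 28 of 32 circles lie left of zero. Of the triangles 26 of 32 lie right of it, where the median over all genes tested is 0.89. Homer3 lies right and Cacng3 left under each.

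The MAGUKs are the membrane-facing scaffolds. Below, values by sample are in CPM in the order control A, control B, tamoxifen A and tamoxifen B. Dlg1, which encodes SAP97, stood at 233, 253, 254 and 155 in cortex and at 114, 128, 118 and 125 in hippocampus. Dlg2, which encodes PSD-93, stood at 314, 354, 307 and 328 in cortex and at 166, 156, 224 and 173 in hippocampus. Neither gene's regions overlapped. Dlg1 was 1.84-fold lower in hippocampus (log2 fold change -0.88, SE 0.16, edgeR adjusted p = 0.0140) and Dlg2 1.82-fold lower (-0.87, SE 0.11, adjusted p = 0.00679). Scaled to neuronal genes the values were -0.05 for Dlg1 and 0.02 for Dlg2, so Dlg2 changed sign. The median over all genes tested was 0.89 on that scale, here and in the paragraphs below. Dlg4, which encodes PSD-95, the most abundant scaffold of the density, stood at 1046, 1102, 953 and 1197 in cortex and at 764, 663, 946 and 676 in hippocampus. Its highest hippocampal sample lay just under its lowest cortical one, and the edgeR adjusted p was 0.0605. Dlg3, which encodes SAP102, a scaffold prominent in young synapses, stood at 34.9, 37.4, 35.7 and 74.4 in cortex and at 37.8, 32.8, 31.9 and 34.5 in hippocampus. Apart from cortical tamoxifen B its samples lay in one narrow range over both regions.

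SHANKs are the large multidomain scaffolds beneath the MAGUK layer. Shank1 stood at 1499, 1626, 1423 and 1403 in cortex and at 894, 966, 1280.0 and 994 in hippocampus. Shank2 stood at 318, 309, 301 and 263 in cortex and at 174, 168, 238 and 179 in hippocampus. The regions did not overlap for either gene, and hippocampal tamoxifen A was the highest of its region. With TMM scaling Shank1 was 1.44-fold lower in hippocampus and Shank2 1.57-fold lower (edgeR adjusted p = 0.0294 and 0.0131). Scaled to neuronal genes all 3 SHANK genes were positive, at 0.21 to 0.62 on the log2 scale. These values lay below the median of 0.89 over all genes tested. Shank3, mutated in Phelan-McDermid syndrome, stood at 698, 663, 603 and 548 in cortex and at 526, 497, 622 and 469.6 in hippocampus. Its regions overlapped, and it did not pass the test (log2 fold change -0.24, adjusted p = 0.194).

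HOMER proteins form tetramers that link SHANK to metabotropic glutamate receptors and calcium stores, and their 3 genes differed in direction. Homer1 stood at 54.3, 51.1, 42.1 and 71.0 CPM in cortex and at 24.6, 24.5, 23.6 and 25.7 in hippocampus. Homer3 stood at 8.49, 7.94, 8.81 and 5.92 in cortex and at 18.4, 15.8, 16.9 and 17.7 in hippocampus. Every hippocampal sample was below every cortical one for Homer1 and above every one for Homer3. Homer1 was 2.22-fold lower in hippocampus (log2 fold change -1.15, SE 0.16, edgeR adjusted p = 0.00794). Homer3 was 2.21-fold higher (1.15, SE 0.14, adjusted p = 0.00599). Both signs held under all 4 scalings, though scalings that raise the median of all genes cannot turn the positive one. Scaled to neuronal genes, Homer1 stood at -0.20 (edgeR adjusted p = 0.391) and Homer3 at 1.98 (adjusted p = 0.00538). Homer2 stood at 131, 139, 135 and 109 in cortex and at 113, 128, 180.1 and 118 in hippocampus, and its regions overlapped. Gene counts do not separate the short, activity-induced form of Homer1 from the long forms. For Homer3, 25.4% of exon bases overlap the gene Ddx49 on the opposite strand in GENCODE M21. The strand setting of the counting is not given in the sources used here, so its counts may hold reads of that neighbour.

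A ratio of 2 genes in one sample does not depend on the scaling of samples. Per kb of exon, Homer1 over Homer3 was 2.09, 2.10, 1.56 and 3.92 in the cortical samples and 0.439, 0.507, 0.456 and 0.474 in the hippocampal ones. Per kb, Homer1 thus exceeded Homer3 in all 4 cortical samples, and Homer3 exceeded Homer1 in all 4 hippocampal ones. In CPM, not divided by exon length (10490 and 3430 bases), Homer1 was the higher gene in all 4 hippocampal samples too. Which gene stands higher in hippocampus therefore depends on the exon lengths used, whereas the gap in the ratio between regions does not. This pair, like the others set in ratio below, was chosen after the values were seen, so it is given with no test.

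Because these paralogs differed in direction, their promoter windows are shown, from 250 bases before to 50 bases after the RefSeq start, on GRCm38.p6 and read 5′ to 3′ on the gene's strand. Windows matched 27 of the 33 genes. Homer1 lies at chr13:93303507-93303806 on the plus strand, Homer2 at chr7:81706876-81707175 on the minus strand and Homer3 at chr8:70282749-70283048 on the plus strand. Capitals mark the GC box GGGCGG on either strand, the letters that Sp1-family factors are known to bind.
Homer1: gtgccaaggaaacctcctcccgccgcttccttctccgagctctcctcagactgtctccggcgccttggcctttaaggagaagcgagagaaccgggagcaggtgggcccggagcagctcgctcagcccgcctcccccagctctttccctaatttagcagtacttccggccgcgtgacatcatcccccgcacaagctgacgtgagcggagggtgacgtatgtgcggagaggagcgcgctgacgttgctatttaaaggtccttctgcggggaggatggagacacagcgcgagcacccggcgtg
Homer2: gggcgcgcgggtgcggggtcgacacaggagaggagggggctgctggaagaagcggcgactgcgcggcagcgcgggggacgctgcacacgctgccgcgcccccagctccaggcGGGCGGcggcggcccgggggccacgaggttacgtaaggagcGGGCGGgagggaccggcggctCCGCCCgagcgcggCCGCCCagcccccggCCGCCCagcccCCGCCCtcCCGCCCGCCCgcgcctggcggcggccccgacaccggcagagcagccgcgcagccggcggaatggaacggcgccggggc
Homer3: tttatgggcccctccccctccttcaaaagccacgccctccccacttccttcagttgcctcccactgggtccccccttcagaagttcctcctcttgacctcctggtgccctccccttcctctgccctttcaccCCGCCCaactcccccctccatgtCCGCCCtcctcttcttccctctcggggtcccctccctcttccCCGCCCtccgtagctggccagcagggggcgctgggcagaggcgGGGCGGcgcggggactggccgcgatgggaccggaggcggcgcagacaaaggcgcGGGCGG
Counted without overlap, the Homer1 window held 0 matches, Homer2 held 7 and Homer3 held 5. At least 1 match was present in 35.7% of 32851 mouse windows of the same length. CpG dinucleotides numbered 26, 49 and 19, against a median of 7 over all windows, and each of the 3 counts was above that median. The RefSeq start used for Homer3 lies 172 bases from the gene start in the count tables. The matches are a description of the letters, and no binding was measured here.

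SAPAPs bridge MAGUKs and SHANKs. Dlgap2 stood at 106, 97.8, 109.6 and 62.9 CPM in cortex and at 30.8, 29.5, 34.4 and 26.5 in hippocampus, without overlap. It was 3.09-fold lower in hippocampus (log2 fold change -1.63, SE 0.19, edgeR adjusted p = 0.00529). Scaled to neuronal genes its value was -0.81 (adjusted p = 0.0639). Dlgap3, a gene tied in mice to compulsive grooming, stood at 1091, 1076, 946 and 1013 in cortex and at 637, 556, 750.4 and 559 in hippocampus. Dlgap4 stood at 294, 329, 286 and 342 in cortex and at 212, 202, 244 and 213 in hippocampus. With TMM scaling Dlgap3 was 1.65-fold and Dlgap4 1.44-fold lower (edgeR adjusted p = 0.0136 and 0.0187). Scaled to neuronal genes both signs turned positive, at 0.16 and 0.38, where the median over all genes tested was 0.89. Dlgap1 stood at 368, 403, 373 and 455 in cortex and at 308, 313, 398 and 336 in hippocampus, and its regions overlapped. Per kb, Dlgap2 over Dlgap1 was 0.794, 0.673, 0.813 and 0.383 in cortex and 0.277, 0.261, 0.239 and 0.218 in hippocampus. All 4 cortical ratios lay above all 4 hippocampal ones, whatever the scaling.

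Neuroligins bind presynaptic neurexins. Nlgn1, found at excitatory synapses, stood at 11, 11.5, 9.80 and 15.2 CPM in cortex and at 10.4, 10.6, 15.4 and 12.2 in hippocampus. Nlgn2, found at inhibitory synapses, stood at 123, 126, 112 and 179 in cortex and at 89.5, 88.9, 115 and 98.5 in hippocampus. Nlgn3, found at both kinds, stood at 16.7, 19.0, 15.7 and 26.3 in cortex and at 13.0, 14.9, 19.1 and 16.9 in hippocampus. The regions overlapped for each of the 3, and none passed the region test (edgeR adjusted p = 0.941, 0.0767 and 0.254). Nlgn3 shares 41.2% of its exon bases with a predicted gene on the same strand, and Nlgn1 shares 9.16% with an antisense gene, so reads counted for them are uncertain to that extent.

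The leucine-rich repeat proteins are postsynaptic partners of neurexins (the LRRTMs) or of netrin-Gs and LAR-type phosphatases (the NGLs, encoded by Lrrc4, Lrrc4b and Lrrc4c). Lrrc4 stood at 45.7, 38.5, 37.2 and 53.4 CPM in cortex and at 26.1, 26.8, 34.2 and 25.9 in hippocampus. Lrrc4c stood at 24.9, 24.4, 23.1 and 41.2 in cortex and at 15.3, 15.0, 19.8 and 17.9 in hippocampus. Neither gene's regions overlapped, and with TMM scaling Lrrc4 was 1.55-fold and Lrrc4c 1.67-fold lower in hippocampus (edgeR adjusted p = 0.0308 and 0.0305). Lrrc4c (log2 fold change -0.74, SE 0.17) did not pass with gene-sum scaling and turned to 0.21 when scaled to neuronal genes. All 5 adhesion genes of this kind were positive on that scale, where the median over all genes tested was 0.89. Lrrc4b stood at 107, 98.1, 87.8 and 148 in cortex and at 89.1, 79.2, 113 and 87.4 in hippocampus, with overlap. Lrrtm1 stood at 8.73, 6.83, 8.06 and 14.3 in cortex and at 9.10, 9.91, 11.6 and 10.3 in hippocampus. Lrrtm2 stood at 7.94, 7.86, 9.26 and 22.5 in cortex and at 10.9, 8.64, 9.11 and 9.62 in hippocampus. Both LRRTM genes overlapped between regions, and in both the highest of all 8 samples was cortical tamoxifen B.

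CaMKII is a holoenzyme built mainly of alpha and beta subunits. Camk2a stood at 6325, 6545, 5893 and 5860.5 CPM in cortex and at 4863, 4965, 5906 and 4259 in hippocampus. Camk2b, whose product also binds actin, stood at 226, 243, 213 and 405 in cortex and at 225, 239.9, 286 and 206 in hippocampus. Both genes overlapped between regions, and neither passed the region test (edgeR adjusted p = 0.212 and 0.606). Their ratio per kb was 34.3, 32.9, 33.9 and 17.7 in the cortical samples and 26.4, 25.3, 25.3 and 25.2 in the hippocampal ones. The other 3 cortical samples thus lay above all hippocampal samples, and cortical tamoxifen B lay below them all.

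TARPs are small membrane proteins that traffic AMPA receptors and slow their closing. Cacng2, which encodes stargazin, stood at 104, 92.0, 79.0 and 101 CPM in cortex and at 44.0, 36.3, 50 and 41.5 in hippocampus. Cacng3 stood at 20.6, 19.3, 16.5 and 41.1 in cortex and at 7.83, 6.33, 9.15 and 7.05 in hippocampus. The regions did not overlap for either gene. Cacng2 was 2.19-fold lower in hippocampus (log2 fold change -1.13, SE 0.13, edgeR adjusted p = 0.00493), with a value of -0.23 when scaled to neuronal genes. Cacng3 was 3.17-fold lower (-1.66, SE 0.28, adjusted p = 0.0118), with a value of -0.68 when scaled to neuronal genes (adjusted p = 0.0191). For Cacng3 the adjusted p rose to between 0.0532 and 0.0594 when control A or B of cortex, control B of hippocampus or tamoxifen B of hippocampus was left out, and without cortical tamoxifen B its log2 fold change was -1.26 (adjusted p = 0.00183). Antisense genes overlap 5.86% of the exon bases of Cacng2 and 3.77% of those of Sorbs2, described next.

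The last group acts on spine actin and small GTPases. Ppp1r9a, which encodes neurabin, stood at 167, 167, 164 and 214 CPM in cortex and at 84.9, 103, 96.4 and 103 in hippocampus, and was 1.83-fold lower in hippocampus (log2 fold change -0.87, SE 0.12, edgeR adjusted p = 0.00728), turning to 0.04 when scaled to neuronal genes. Its paralog Ppp1r9b stood at 3007, 3081, 2849 and 2810.3 in cortex and at 2336, 2261, 2726 and 2289 in hippocampus, also without overlap, but did not pass the test (adjusted p = 0.141). Baiap2, which encodes IRSp53, a protein that couples Rac to actin, stood at 68.4, 64.8, 52.6 and 155 in cortex and at 36.2, 36.0, 44.7 and 38.0 in hippocampus. Scaled to neuronal genes its log2 fold change was -0.11 (edgeR adjusted p = 0.681). With TMM scaling it was 2.15-fold lower in hippocampus (-1.11, SE 0.31, adjusted p = 0.0483). Without cortical tamoxifen B the difference shrank to -0.62 and its SE from 0.31 to 0.08 (adjusted p = 0.00449), while leaving out either sample of any other group took the adjusted p to between 0.0976 and 0.159. Kalrn, an exchange factor for small GTPases of the spine, stood at 297, 295, 299 and 312 in cortex and at 231, 253, 268 and 232 in hippocampus, close together in cortex and without overlap between regions. Iqsec2, an exchange factor for Arf6 linked to intellectual disability, stood at 266, 264, 246 and 282 in cortex and at 211, 203, 249 and 171 in hippocampus. Sorbs2, an adaptor between actin and signalling proteins, stood at 41.7, 41.0, 48.3 and 52.0 in cortex and at 40, 41.8, 36.2 and 38.1 in hippocampus. None of these 3 passed the region test (adjusted p = 0.0693, 0.117 and 0.0837).

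Taking the labels apart, control hippocampus against control cortex (2 samples each) gave 8 genes lower and 1 higher, against 3.48% and 2.71% of all genes by edgeR. These were Cacng2, Dlg2, Dlgap2, Shank2, Ppp1r9a, Homer1, Dlgap3 and Dlg1 on the lower side and Homer3 on the higher side. Their log2 fold changes ran from -1.75 for Dlgap2 to 1.06 for Homer3, with edgeR adjusted p from 0.0241 to 0.0479. Between the tamoxifen samples 0 of the 32 genes were lower and 1 was higher, Homer3 (log2 fold change 1.24, SE 0.20, edgeR adjusted p = 0.0459), against 0.692% and 0.426% of all genes. The values of the genes next in order were still large there, at -1.50 for Dlgap2 (SE 0.26), -0.92 for Ppp1r9a (SE 0.17), -0.98 for Cacng2 (SE 0.18), -1.20 for Homer1 (SE 0.23) and -1.83 for Cacng3 (SE 0.40), with adjusted p from 0.0526 to 0.0712. In both comparisons the number of calls moved with the sample left out. The calls of the control comparison were lost when any 1 of the 4 control samples was left out. That of the tamoxifen comparison was lost when any 1 of the 6 samples other than the cortical tamoxifen ones was left out. Each such fit holds a group of 1 sample, so counts of calls from it are not taken as results. The counts of 9 and 1 do not show that the regions differed less under tamoxifen: the difference between these contrasts is the one tested below between the treatment effects. When 1 sample was left out of the average of both labels, the number of genes past the threshold fell in most of the 8 fits. The log2 fold change there ran from -1.21 to -1.02 for Cacng2, -0.96 to -0.74 for Dlg2 and -1.80 to -1.40 for Dlgap2. For Homer1 it ran from -1.31 to -0.94, for Ppp1r9a from -0.96 to -0.77 and for Homer3 from 1.02 to 1.30.

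**Figure D3:**
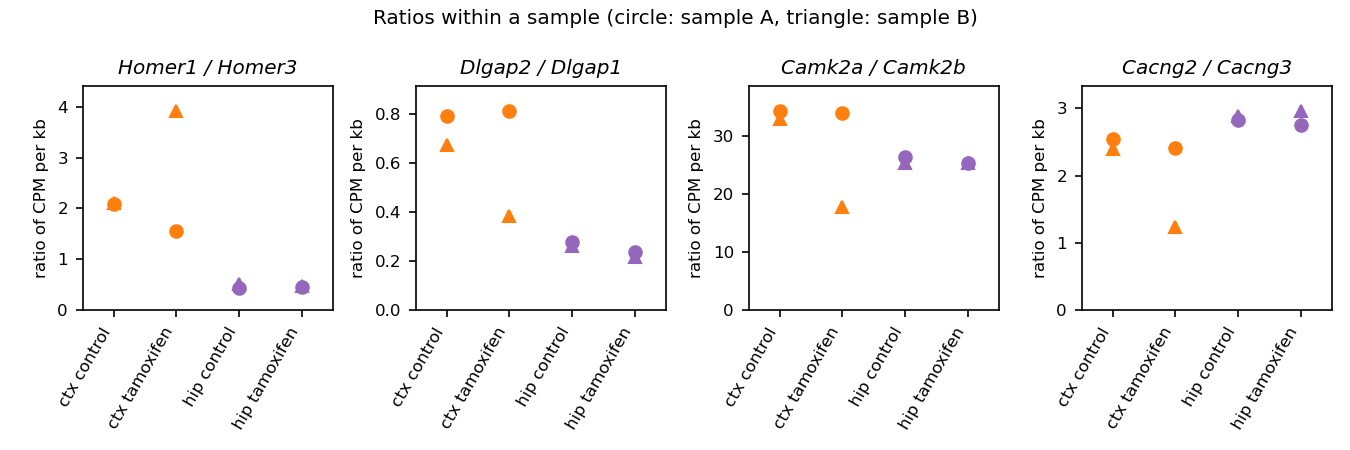
Ratios of CPM per kb between paralogs or subunits within each of the 8 samples (circles sample A, triangles sample B, orange cortex, purple hippocampus), with vertical axes from 0. Homer1 over Homer3 lies at 1.56 to 3.92 in cortex and 0.439 to 0.507 in hippocampus, Dlgap2 over Dlgap1 does not overlap between regions, and cortical tamoxifen B is the lowest sample for Camk2a over Camk2b and for Cacng2 over Cacng3.

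Other genes of the postsynapse were listed beside these. Of 29 further scaffold and signalling genes 17 were lower in hippocampus with TMM scaling and 0 higher (median log2 fold change -0.55). Scaled to neuronal genes 2 were lower and 8 higher, where 10835 of 18074 genes passed in either direction. The lower ones with TMM included Camk2n1, an inhibitor of CaMKII (-1.90, SE 0.18, edgeR adjusted p = 0.00366), and Nrgn, the calmodulin-binding protein neurogranin (-1.47, SE 0.20, adjusted p = 0.00756). Of 9 further auxiliary proteins of AMPA receptors 3 were lower and 2 higher with TMM scaling, and 1 was lower and 4 higher when scaled to neuronal genes. Gsg1l, Cnih3 and Shisa9 were lower with TMM (-1.68, -1.09 and -0.96) and Shisa6 and Cnih2 higher (2.46 and 0.49). Scaled to neuronal genes, Gsg1l, Shisa6 and Cnih2 still passed in the same direction, while Cnih3 stood at -0.17 and Shisa9 at -0.02 (edgeR adjusted p = 0.474 and 0.947). With gene-sum scaling Shisa9 did not pass (adjusted p = 0.117). With TMM scaling 0 of 9 further adhesion genes passed (median -0.42), and 3 passed as higher when scaled to neuronal genes. Of 5 genes of inhibitory postsynapses 2 were lower with TMM scaling (median -0.24), 0 passed with gene-sum scaling and 2 were higher when scaled to neuronal genes.

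The study's own question was what tamoxifen changed. In cortex, 0 of the 32 genes passed in edgeR at an adjusted p under 0.05, and 0.0% of all genes did. At an unadjusted p under 0.05 there were 2 of the 32, beside 899 of 18074 genes. DESeq2 and limma voom also gave 0. On the 16 libraries taken separately edgeR gave 2, Sorbs2 and Lrrtm2, beside 562 of 16746 genes. Those p-values are too small where the added libraries are repeats of one sample. The median log2 fold change was 0.07, against 0.04 over all genes tested. Of the 32 values 19 were positive with TMM scaling, 29 with gene-sum scaling and 8 when scaled to neuronal genes. The median over all genes moved too, to 0.25 with gene-sum scaling and -0.21 when scaled to neuronal genes. Tamoxifen samples both lay above both controls for 3 genes (Lrrtm2, Kalrn and Sorbs2) and below for 6 (Shank1, Shank2, Shank3, Dlgap3, Camk2a and Ppp1r9b), where 16.2% and 15.0% of all genes did so. With gene-sum scaling these numbers became 2 and 0, beside 3768 and 1137 of 18074 genes. None of the 6 thus lay below both controls on that scale.

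The 6 genes of smallest p in cortex were Lrrtm2, Sorbs2, Dlg3, Lrrtm1, Lrrc4c and Baiap2, each with an edgeR adjusted p of 0.830. From the values by sample above, Lrrtm2 went from 7.86 and 7.94 CPM in controls to 9.26 and 22.5 (log2 fold change 1.01, SE 0.37). Sorbs2 went from 41.0 and 41.7 to 48.3 and 52.0 (0.28, SE 0.11). In these 2 genes both tamoxifen samples stood above both controls. Dlg3 (0.61, SE 0.31), Lrrtm1 (0.52, SE 0.27), Lrrc4c (0.38, SE 0.25) and Baiap2 (0.64, SE 0.43) were high in tamoxifen B only. Without that sample their values were -0.02, 0.05, -0.09 and -0.34, and those of Lrrtm2 and Sorbs2 were 0.23 and 0.22. Without tamoxifen A, the values of Dlg3, Lrrtm1, Lrrc4c and Baiap2 were 1.04, 0.87, 0.74 and 1.22. Those of Dlg1 and Dlgap2 were -0.65 and -0.696, against 0.06 and 0.11 without tamoxifen B. Each of these fits leaves 1 tamoxifen sample in cortex, so no calls are taken from them. Among all genes tested, tamoxifen B lay above all other cortical samples in 38.8% and below them in 33.7%. Such swings are thus not particular to these genes. The direction or the size of these values in cortex turned on which of the 2 tamoxifen samples was kept.

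In hippocampus, 0 of the 32 genes passed in edgeR, and 0.0% of all genes did. None of the 32 had an unadjusted p under 0.05, beside 653 of all genes, and DESeq2, limma voom and the 16 libraries taken separately gave 0. Over all genes the separate libraries gave 318 of 16746. The median log2 fold change was 0.16, against -0.01 over all genes, with 29 values positive. Scaled to neuronal genes, 7 were positive and 25 negative, where the median over all genes was -0.26. Both tamoxifen samples lay above both controls for 11 genes and below for 1, against 21.0% and 18.9% of all genes. With gene-sum scaling they did so for 7 and 1, beside 2635 and 4259 of 18074 genes. The 6 genes of smallest p were Dlg2 (0.30, SE 0.16), Nlgn1 (0.39, SE 0.22), Shank2 (0.29, SE 0.16), Shank1 (0.29, SE 0.18), Nlgn3 (0.37, SE 0.24) and Dlgap1 (0.24, SE 0.16), each with an edgeR adjusted p of 1.0. In all 6 the higher of the 2 tamoxifen samples was sample A. With TMM and with gene-sum scaling that sample exceeded the other 3 hippocampal samples in 25 of the 32 genes and was below them in 3, while scaled to neuronal genes it did so in 6 and 7. With TMM, 30.7% and 30.3% of all genes were above and below in this way. Without it the median of the 32 was 0.04, with 17 positive and 15 negative. The same sample held 33.9 CPM of Ttr, the transthyretin gene of choroid plexus, where the remaining hippocampal samples held between 6777 and 13972 CPM. The part of that tissue in the result was not tested.

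**Figure D4:**
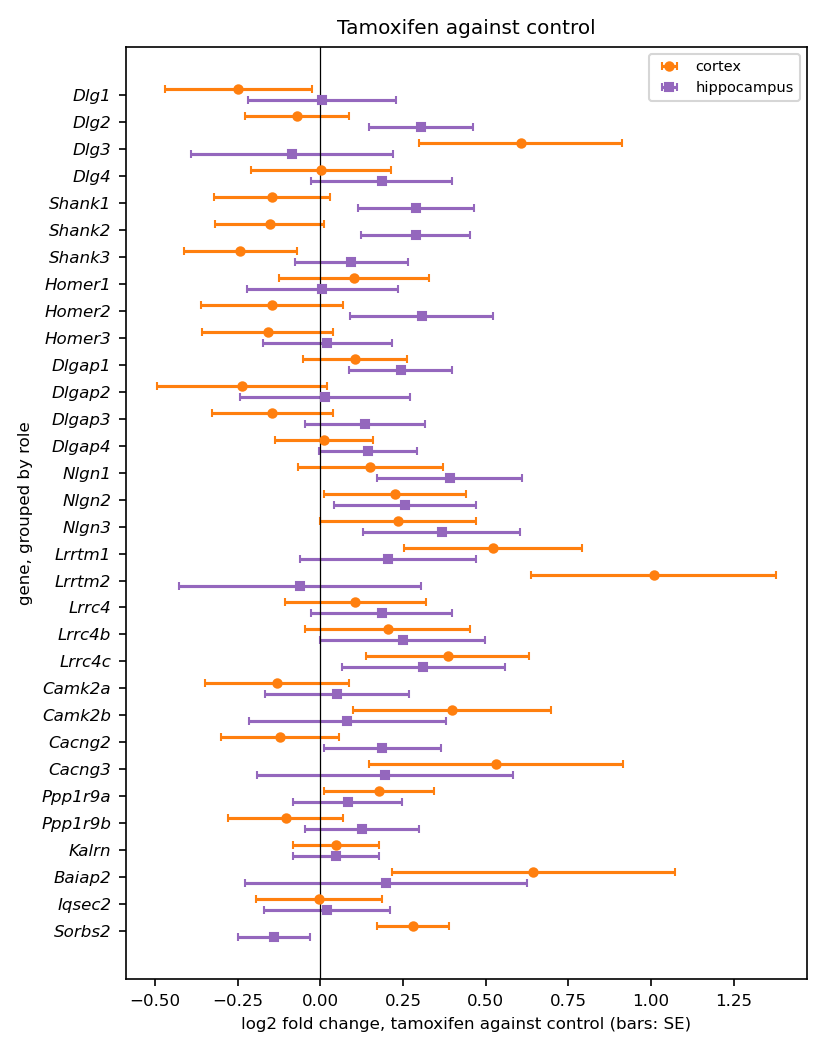
Log2 fold change of tamoxifen against control samples for each gene (rows, grouped by role), in cortex (orange circles) and hippocampus (purple squares), with SE as bars under TMM scaling. No gene passed the threshold in either region. In hippocampus 29 of 32 points are positive, though only 7 are when samples are scaled to general neuronal genes. On that scale the median over all genes tested is -0.26.

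The difference of the 2 tamoxifen effects, hippocampus minus cortex, was tested in the same fit. It passed for 0 of the 32 genes and 0.0% of all genes in edgeR. At an unadjusted p under 0.05 there was 1 of the 32, beside 981 of all genes. DESeq2 and limma voom gave 0, and the 16 libraries taken separately gave 1, Sorbs2, beside 867 of 16746 genes. The 6 genes of smallest p were Sorbs2 (-0.42, SE 0.15), Lrrtm2 (-1.07, SE 0.52), Shank2 (0.44, SE 0.23), Shank1 (0.43, SE 0.25), Dlg2 (0.38, SE 0.22) and Dlg3 (-0.69, SE 0.43), with edgeR adjusted p from 0.889 to 0.914. For Sorbs2 the samples moved apart in opposite ways: both tamoxifen samples were above both controls in cortex and below both in hippocampus, by 0.28 and -0.14 on the log2 scale. Of all genes tested, 16.2% lay above in this way in cortex and 18.9% below in hippocampus.

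With TMM scaling cortical tamoxifen B stood above all 3 other cortical samples in 20 of the 32 genes and below in 9, while 38.8% and 33.7% of all tested genes did so. With gene-sum scaling it was above in 29 and below in 2, and scaled to neuronal genes above in 4 and below in 25, so the direction of most genes in this sample depends on the scaling. The order of the genes does not. With TMM the 3 neuroligins and 5 leucine-rich repeat genes stood at 1.32 to 2.69 times the mean of the other 3 samples and the 3 SHANK genes at 0.837 to 0.925 times. With gene-sum scaling these ranges were 1.78 to 3.63 and 1.13 to 1.25, and scaled to neuronal genes 0.732 to 1.48 and 0.465 to 0.515. Each of the 8 adhesion genes was thus higher relative to each SHANK gene, a contrast chosen after the values were seen. The other roles spanned wide ranges with TMM, from 0.629 to 2.07 times for the MAGUKs, 0.704 to 1.44 for the HOMERs and 0.944 to 2.51 for the spine regulators.

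The highest ratios with TMM were those of Lrrtm2 (2.69 times), Baiap2 (2.51), Cacng3 (2.18) and Dlg3 (2.07), and the lowest those of Dlgap2 (0.603), Dlg1 (0.629) and Homer3 (0.704). Within families, Camk2b stood at 1.78 times and Camk2a at 0.937 times the other samples, and Cacng3 at 2.18 times and Cacng2 at 1.10 times. Per kb, Cacng2 over Cacng3 was 2.54, 2.40, 2.41 and 1.24 in the cortical samples and 2.83, 2.89, 2.75 and 2.96 in the hippocampal ones. Cortical tamoxifen B was the lowest of all 8 samples. The other 7 lay between 2.40 and 2.96, and every hippocampal sample was above every cortical one.

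The 10 general neuronal genes were higher in cortical tamoxifen B by 0.84 on the log2 scale with TMM scaling, and the 32 genes by 0.29 on average. The 5 striatal genes were higher by 0.90. The difference was -1.10 for endothelial, -0.65 for oligodendrocyte and -3.98 for choroid plexus markers, the last ranging from 0.20 to 7.34 (mean log2 CPM) over the cortical samples. Mitochondrial transcripts took 20.1 to 20.7% of gene counts in its libraries and 29.7 to 32.1% in the other cortical ones, and 27.5 to 28.4% of its counts aligned to several places, against 33.8 to 35.4%. Their part in the pattern was not tested, and 1 sample allows no test against its group.

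**Figure D5:**
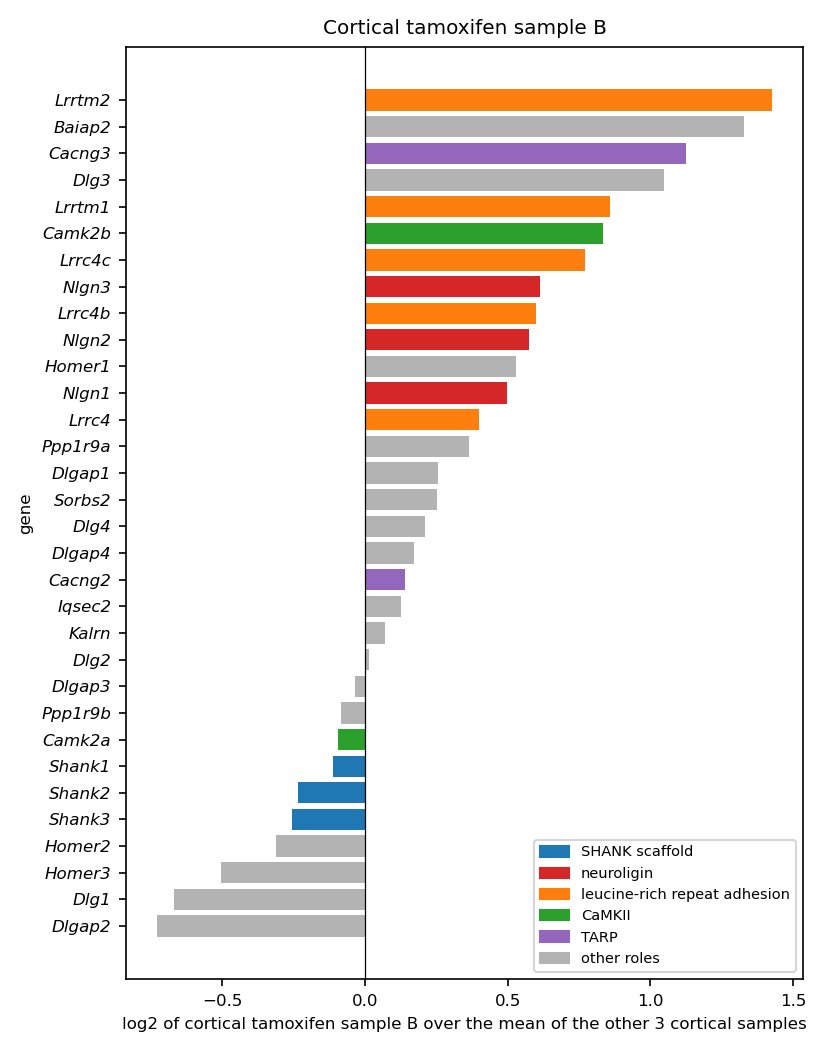
Log2 ratio of cortical tamoxifen sample B to the mean of the other 3 cortical samples for each gene (bars from 0, coloured by role, TMM-scaled CPM). With TMM, neuroligins and leucine-rich repeat genes lie right of zero and SHANK genes left of it, whereas gene-sum scaling puts all of these right of zero. Camk2b and Camk2a stand at 1.78 and 0.937 times the other samples.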

How the data were processed

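Total RNA of 16 libraries in 4 groups of 4 was analysed. Reads were aligned with STAR and counted per gene with HTSeq, and the build was mm10, according to the submitters' processing notes. Versions, annotation release and strand setting are not stated in these sources. The deposited value used is the count of each gene, a whole number, not normalized. The deposited RPKM beside it, per the file headers, was recomputed from the counts and matched 100% of values. It entered no test, and genes were compared as TMM-scaled CPM per kb of the files' exon length, a change from the planned RPKM. Reads given to no gene stayed out: 27.5 to 35.4% of all counts aligned to several places and 3.64 to 7.93% fell outside genes.

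Libraries 1 and 2, and 3 and 4, of a group were added, after their differences were rechecked. The 8 samples were filtered with filterByExpr, scaled with TMM and fitted with 1 mean per group in edgeR 4.0.16 (R 4.3.3), robust quasi-likelihood test, Benjamini-Hochberg over all 18074 genes, threshold 0.05. SE was taken as the ratio of the log2 fold change to the root of F. Where leaving out 1 sample left a group with 1, the lone sample is assumed to vary like the other groups. The fit was tested on simulated data. Alternatives were RLE scaling, no filter, DESeq2 1.42.0, a replicate block, libraries separately, limma voom 3.58.1 with correlated libraries, leaving out each sample, and, added after the data were seen, gene-sum and pan-neuronal scaling.

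The genes and lists were chosen with earlier results of these data known. All genes are named with levels. In each contrast, statistics are given for genes past the threshold (the 10 of largest change where more pass), filled up to 6 by smallest p. Coordinates are on GRCm38 (mm10), promoter sequences are from RefSeq GRCm38.p6, and exon overlaps from GENCODE M21. The striatal list is given over 5 genes, and a result on 1 marker is not reported here.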

Additional observations from a re-analysis of the deposited data

How the results depend on the processing

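No alternative gave a call for the 32 genes in hippocampus with tamoxifen. Leaving out 1 sample gave 0 to 10 calls in cortex with tamoxifen, 6 to 24 for hippocampus against cortex on average, 0 to 16 in controls and 0 to 17 in tamoxifen samples. With the 16 libraries fitted separately there were 2 calls in cortex, 1 for the difference of the effects, and 26, 23 and 22 in the average, control and tamoxifen region contrasts. Over all genes that fit called 562, 867 and 8480 of 16746 in cortex, in the difference and in the region average. limma voom gave 24, 23 and 19 in the region contrasts, beside 5082 of 16746 genes in the average. DESeq2 gave 15 in controls and 12 in tamoxifen samples. Gene-sum scaling gave 8, 2 and 0, pan-neuronal scaling 3 in controls and 0 in tamoxifen samples, and in tamoxifen samples RLE gave 0 and no filter 5. Where no share over all genes is given, a count is not read as a trait of these genes. Each fit with 1 sample left out holds a group of 1 sample, so its calls are not taken as results. The 10 calls in cortex with tamoxifen came from the fit without tamoxifen A. That fit rests on the outlying tamoxifen B alone for the treated cortex. The libraries taken separately count more units, and for the other changes the cause was not tested.

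With letters A and B as a replicate block, 11 genes passed in the region average, beside 2110 of 18074 over all genes. With that block 1 passed in controls (against 9), 0 in tamoxifen samples (against 1) and 0 in each tamoxifen comparison. The letters share only a number: deviations of same-lettered samples correlated between -0.405 and 0.283 over the 6 pairs of groups. Signs reversed without cortical tamoxifen B for Dlg3 (-0.022), Lrrc4c (-0.0927) and Baiap2 (-0.34), whose highest values with 1 sample left out were 1.04, 0.74 and 1.22. With pan-neuronal scaling the median over all genes tested moved to -0.26 in hippocampus with tamoxifen, -0.21 in cortex and 0.89 in the region average. On that scale 22 of the 29 positive values turned negative in hippocampus with tamoxifen and 11 of 19 in cortex. In the region average 22 of 28 negative values turned positive, as did 23 of 29 in controls and 24 of 29 in tamoxifen samples. Among the genes given with statistics these were Dlgap1 in hippocampus with tamoxifen (-0.0198), Ppp1r9a (0.042), Dlg2 (0.0192) and Lrrc4c (0.21) among the 10 largest of the region average, Shank2 (0.0116), Ppp1r9a (0.0644) and Dlgap3 (0.0245) in controls and Ppp1r9a (0.0196) in tamoxifen samples. The least counted gene, Lrrtm2, had 234 counts or more per library.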
